A study of Mus musculus with 2 samples.

Results

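The genes described here are nuclear receptors other than the PPAR and RXR families, together with transcription factors that shape the hepatocyte. A list of 32 gene symbols defined them, and every probe set that the platform annotation assigns to 1 of these symbols was taken. That gave 86 probe sets for 31 genes, of 18193 named genes on the array, while no probe set carried the symbol of Nr1h2, the second oxysterol receptor. Liver RNA came from male 129SvEJ mice of 8 weeks, either wild type or pparalpha -/- (called null below). How the Ppara gene was disrupted is not stated in the labels. Mice of both genotypes ate chow with 0.2% fenofibrate, a fibrate drug that activates PPARα, for 7 days. RNA of 3 mice per genotype was pooled and each pool was measured on 1 short oligonucleotide array, so every value is a single measurement with no replicate check, no test and no p-value. No mice without the drug were analysed here, so the effect of genotype and the response to the drug cannot be told apart.

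Nuclear receptors are transcription factors switched by small ligands such as oxysterols, bile acids, steroids and retinoids, and many bind DNA as a dimer with RXR, the partner that PPARα also uses. HNF4α, the FOXA proteins, HNF6 and the C/EBP proteins act with them at the enhancers and promoters of liver genes and keep the hepatocyte identity. CAR and PXR govern drug metabolism, FXR and LRH-1 bile acid synthesis, LXRα sterol export and lipogenesis, and the glucocorticoid receptor fasting glucose production.

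The deposited value is a signal intensity scaled within each array to a common target. A floor was set at the median signal of each array (287.8 for wild type, 269.4 for null), and dimmer signals were set to it. Ratios are log2 values of wild type divided by null, so a positive value means a higher signal in wild type. A gene took the value of its brightest probe set and counted as measured when it reached the floor on at least 1 array. Of the 31 genes, 30 were measured: both arrays detected 26, and 4 passed in wild type alone. The lone gene under both floors was Nr2f1, which encodes the orphan receptor COUP-TFI (229.6 in wild type and 31.2 in null). As a gauge of scatter, different probe sets of 1 gene had log2 ratios with a pooled SD of 0.42 over all genes, and of 0.38 over the 12 listed genes for which at least 2 probe sets passed both floors. Ppara itself read 7957 in wild type and 3414 in null at its brightest probe set, and its 3 probe sets were 1.98-fold to 2.78-fold higher in wild type. A probe outside the disrupted part would still read the remaining transcript, so this is a limited check of the labels. All 9 hepatocyte markers found on the array were above the floor on both arrays.

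Most of these regulators differed little between the genotypes. Among the 26 genes measured on both arrays, 19 lay within 1.5-fold (73.1%, against 78.3% of the 10060 genes measured on both arrays). Their log2 ratios ran from -1.01 to 0.86 with an SD of 0.42, against an SD of 0.54 for all genes. Taking 2-fold as the line, 2 of the 30 were higher in wild type (6.67%, where 4.99% of all measured genes were) and 1 was lower (3.33%, against 2.80%). These shares lie near the background. Of the 26 on both arrays, 0 were at least 2-fold higher (3.61% of all such genes) and 1 was lower (2.24%). The 3 genes were Esrrg and Vdr on the higher side and Nr3c2 on the lower, and each was dim on at least 1 array. Esrrg and Vdr passed the floor through wild type alone, which fixes their direction, and 18.2% of all genes that passed in wild type alone reached 2-fold. Of all genes that passed in null alone, 10% reached 2-fold, and 0 listed genes were of that kind.

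At 1.5-fold, 6 genes were lower in wild type, namely Nr3c2, Rarb, Rora, Nr5a2, Cebpd and Prox1 (20% of the 30, where 11.0% of all measured genes were), and 4 were higher, namely Esrrg, Vdr, Nr4a1 and Nr2c1 (13.3%, against 14.8%). Of the 26 genes on both arrays, 19 had a negative log2 ratio (73.1%, against 52.2% of all genes), and their median was -0.29 against -0.02 for all genes. The direction depends on how the arrays are scaled. The 18 hybridization controls read lower on the wild-type array at every probe set, by a median log2 ratio of -0.38. Scaling to them moves every ratio up by 0.38. The median of all genes on both arrays is then 0.36 and that of the listed genes 0.09. Since every ratio moves alike, this scaling cannot change the gap of -0.27 between them. When each gene took the median over its probe sets, the median of the listed genes was -0.18, with 17 negative and 9 positive. With the floor at the 75th percentile it was -0.14, against -0.05 for all measured genes. Other liver transcription factors (-0.27) and hepatocyte markers (-0.30) were shifted down too, while LXR targets stood at 0.12. A negative shift is thus not particular to the listed genes. Across the deposited scaling, median centring, quantile normalization and loess, 16 of the 26 genes were lower in wild type each time, 7 were higher each time and 3 changed sign (Nr1i3, Esr1 and Foxa1). Adding hybridization control scaling, which raises every ratio alike and so can turn negative ratios only, 10 of the 26 were lower in wild type each time (Nr2f2, Nr3c2, Nr4a2, Nr5a2, Rarb, Rora, Prox1, Cebpa, Cebpb and Cebpd). The 7 higher genes were Nr1h3, Nr1i2, Nr2c1, Nr2c2, Nr2f6, Rarg and Foxa2.

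**Figure D1:**
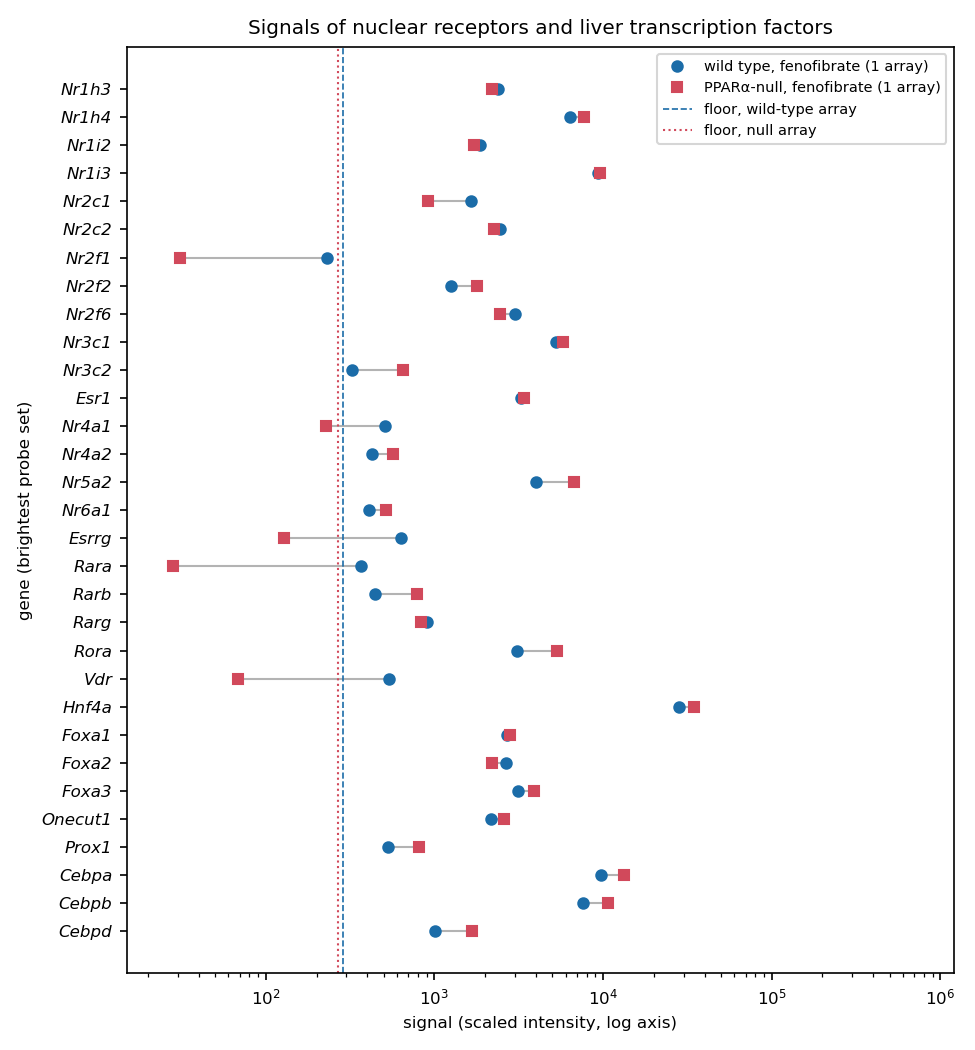
Signal of each gene at its brightest probe set on the wild-type array (circles) and the null array (squares), on a log axis, with the floor of each array as a vertical line. Esrrg, Vdr, Rara and Nr4a1 fall under the floor on the null array, Nr2f1 on both arrays, and the other 26 genes lie above it on both.

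**Figure D2:**
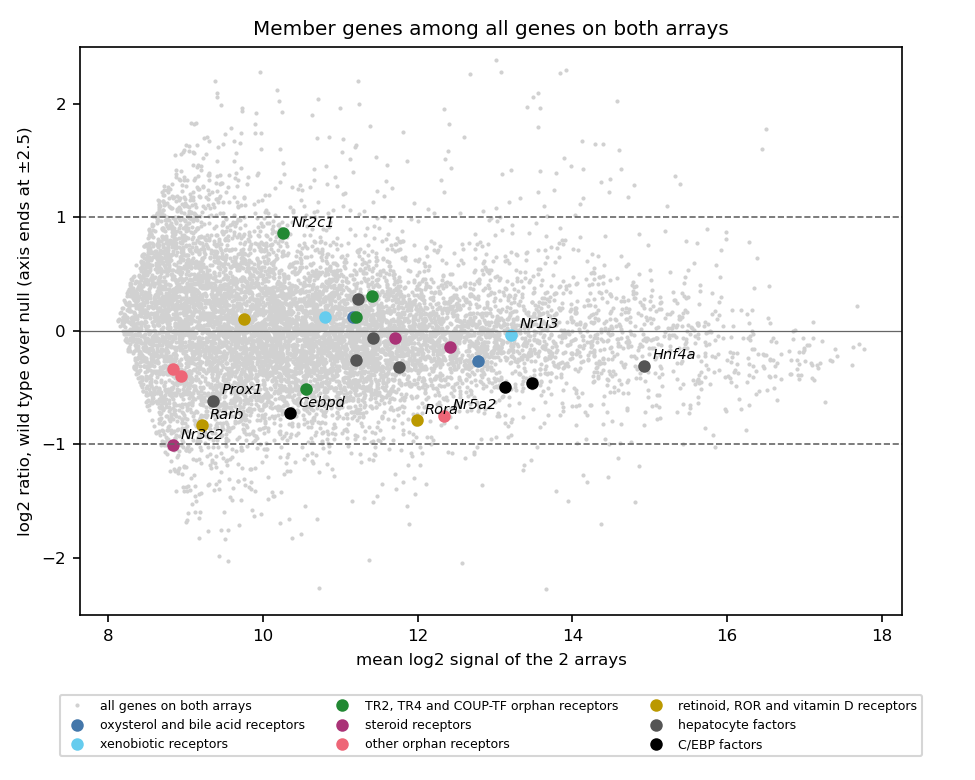
Log2 ratio (wild type over null) against the mean log2 signal for all 10060 genes measured on both arrays (grey) and the 26 listed genes among them (coloured by role), with dashed lines at 2-fold. The axis ends at 2.5 and leaves out 28 genes, none of them listed here; Nr3c2 is the listed gene on the lower line and Nr2c1 the one nearest the upper line.

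Promoter sequence of 3 of the 6 genes that were at least 1.5-fold lower is shown, since Nr3c2 and Rarb had the lowest ratios on both arrays and Nr5a2 is the orphan receptor closest to bile acid synthesis. The sequences are the 250 bases before a RefSeq transcript start (GRCm38.p6), written 5′ to 3′ on the strand of the gene. They lie at chr8:76902080-76902329 (plus strand), chr14:16575477-16575726 (minus strand) and chr1:136960449-136960698 (minus strand, the window of 2 that holds the hexamer). Capitals mark a TTGCNNAA match for Nr3c2, a loose form of the site of C/EBP proteins. In Rarb they mark GTTCA followed, after 5 bases of any kind, by AGTTCA, the direct repeat known as the retinoic acid response element of this gene. In Nr5a2 they mark AGGTCA, the hexamer that many nuclear receptors bind. The Rarb sequence also holds a TTGCNNAA match on the other strand, left in lower case.
Nr3c2: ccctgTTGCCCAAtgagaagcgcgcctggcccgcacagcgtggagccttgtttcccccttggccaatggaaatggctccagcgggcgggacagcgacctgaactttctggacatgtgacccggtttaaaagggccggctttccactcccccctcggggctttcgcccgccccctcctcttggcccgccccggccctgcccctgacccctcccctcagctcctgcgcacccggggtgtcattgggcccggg
Rarb: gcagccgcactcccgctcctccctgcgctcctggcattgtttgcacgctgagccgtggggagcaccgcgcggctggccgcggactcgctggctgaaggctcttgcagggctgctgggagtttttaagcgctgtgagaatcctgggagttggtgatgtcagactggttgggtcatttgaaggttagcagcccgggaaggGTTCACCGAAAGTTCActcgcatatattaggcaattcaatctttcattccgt
Nr5a2: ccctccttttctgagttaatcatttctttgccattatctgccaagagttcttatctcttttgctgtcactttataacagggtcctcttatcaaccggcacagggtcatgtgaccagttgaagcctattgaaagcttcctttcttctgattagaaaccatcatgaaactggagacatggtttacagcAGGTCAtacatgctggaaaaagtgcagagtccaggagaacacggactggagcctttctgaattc

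These motifs, chosen after the sequences were seen, were searched on both strands in the 45 windows of the 29 listed genes present in the promoter table and in all 32851 windows of that table. AGGTCA was found in 8.89% of the windows of listed genes and 14.0% of all windows, TTGCNNAA in 15.6% and 9.56%, and the forkhead motif TGTTTAC in 4.44% (Foxa1 and Nr2f1) and 3.17%. The repeat of the Rarb window occurred in 9 windows of the table. A direct repeat of AGGTCA with 1 spacer base of any kind, which PPARα with RXR and HNF4α can bind, occurred in 11 windows of the table and in 0 of the 45. The motifs can overlap each other, and a match is no evidence of binding.

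The oxysterol and bile acid receptors differed by less than the scatter between probe sets. Nr1h3, which encodes LXRα, read 2393 in wild type and 2201 in null, a log2 ratio of 0.12. Nr1h4, which encodes the bile acid receptor FXR, read 6391 and 7701, a log2 ratio of -0.27, or 0.11 when scaled to the hybridization controls. Each had 1 probe set.

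The xenobiotic receptors were likewise close. Nr1i3, which encodes CAR, read 9363 in wild type and 9585 in null (log2 ratio -0.03), and its sign changed with the scaling. Nr1i2, which encodes PXR, had 2 probe sets, with 1862 against 1714 and 1490 against 1544. The first is slightly higher in wild type and the second slightly lower, by 1.09-fold and 1.04-fold.

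Among the orphan receptors of the TR2, TR4 and COUP-TF groups, Nr2c1 stood highest. Nr2c1 encodes TR2, a receptor that binds direct repeats of the hexamer and is known mostly as a repressor. It read 1657 in wild type and 911.8 in null at the brightest probe set, 1.82-fold higher. Its other probe sets on both arrays gave 1096 against 870.3 and 903.2 against 754.8, with log2 ratios of 0.33 and 0.26, and a probe set under the floor in null gave 425.9 against 60.6. All 3 probe sets on both arrays thus point towards wild type, with the brightest set apart from the other two. Nr2c2, for the related TR4, read 2463 and 2258 at the brightest of 6 probe sets (log2 ratio 0.13). Another of its probe sets, above the floor in null only, pointed the other way (126.2 against 434.6).

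Nr2f2 encodes COUP-TFII, which liver endothelial and stellate cells express along with hepatocytes. It read 1262 in wild type and 1795 in null at the brightest probe set and 675.5 against 1025 at the next, 1.42-fold and 1.52-fold lower, while another gave 574.6 against 502.9, a log2 ratio of 0.19. In this bulk tissue, fewer cells of a type and less RNA per cell cannot be told apart. Of 8 endothelial markers on both arrays 6 were lower in wild type (median log2 ratio -0.25), with summed signals of 13739 in wild type and 16110 in null for all 10 markers. For stellate and fibroblast markers it was 5 of 8 (median -0.30; sums of 26519 and 32386 over 10), and for Kupffer and macrophage markers 7 of 8 (median -0.53; sums of 18587 and 25519 over 10). Vwf, Col1a1 and Marco were under both floors. Of 7 cholangiocyte markers found and 7 lymphocyte and neutrophil markers found, 0 passed both floors (sums of 1049 and 1825, and of 1020 and 1452). Krt7, Cftr, Cd3e, Cd79a and S100a8 were among those under both. Cholangiocyte Tspan8 passed in null alone and was at least 2.04-fold lower in wild type (86.2 against 586.9), and Cd5l was the Kupffer marker past 2-fold. No marker of any list was at 0. Hepatocyte markers were lower too (9 of 9, median -0.30), and after scaling to the hybridization controls the 4 medians were 0.13, 0.08, -0.15 and 0.08 in this order. The part of cell makeup in the Nr2f2 values was not tested. Nr2f6, for the related EAR2, gave opposite signs at its 2 probe sets, 3023 against 2448 and 1705 against 2026.

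All 3 steroid receptors had negative log2 ratios, or 1 of 3 when scaled to the hybridization controls. Nr3c2, which encodes the mineralocorticoid receptor, read 322.6 in wild type and 647.8 in null at its single probe set, 2.01-fold lower. It is the lowest of the listed genes measured on both arrays, but the wild-type signal is close to the floor and to the brightest Bacillus control of that array (316.5), a probe set for bacterial sequence that stands for background here. Its log2 ratio was -0.98 after median centring and -0.63 after scaling to the hybridization controls, under 2-fold in both.

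Nr3c1, which encodes the glucocorticoid receptor, passed both floors at 4 probe sets and was lower in wild type at each. These read 5227 against 5769, 3597 against 5308, 2260 against 2345 and 1042 against 1538, with log2 ratios of -0.14, -0.56, -0.05 and -0.56. A further one passed in null only (47.0 against 466.1). The probe sets fall into pairs near no difference and near 1.48-fold, and the log2 ratio of the brightest was 0.24 when scaled to the hybridization controls. Esr1, for estrogen receptor α, read 3270 against 3419 (log2 ratio -0.06) and at a dimmer probe set 442.5 against 634.8 (-0.52).

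Of the remaining orphan receptors, Nr5a2 was the brightest to differ. It encodes LRH-1, which drives Cyp7a1 and Cyp8b1 transcription in bile acid synthesis. It read 4014 in wild type and 6731 in null at the brightest probe set, 1.68-fold lower. Its other probe sets gave 3876 against 4300 and 1787 against 1130, with log2 ratios of -0.15 and 0.66. The 3 probe sets therefore span both directions, and their median log2 ratio is -0.15.

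Esrrg, for the orphan receptor ERRγ, gave 636.8 in wild type and 127.9 in null, at least 2.36-fold higher against the null floor. Its other 2 probe sets were under the floor on both arrays (254.0 against 220.1 and 215.4 against 209.0), so the difference rests on 1 dim probe set. Nr4a1, for the immediate early receptor NUR77, read 509.2 and 227.2, at least 1.89-fold higher. Its direction too is fixed by passing in wild type alone. With the floor at the brightest Bacillus control of each array, the log2 bound of Esrrg was 0.59, under 2-fold, and that of Nr4a1 was 0.27. Nr4a2, for NURR1, read 428.1 and 564.5 at the brightest of 6 probe sets (log2 ratio -0.40), and 4 of the other 5 were under both floors. Nr6a1, for the germ cell nuclear factor, had 5 dim probe sets that disagreed. It read 408.8 against 516.6 at the brightest and 232.3 against 427.5 at one that passed in null alone. The other 3 passed in wild type alone, with 430.2 against 55.9, 356.7 against 42.6 and 335.8 against 156.1.

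Among the retinoid, ROR and vitamin D receptors, Rarb and Rora were lower in wild type. Rarb, the retinoic acid receptor gene that is itself a target of retinoic acid through the element shown above, read 444.5 in wild type and 789.0 in null at its single probe set, 1.78-fold lower. Rarg read 898.0 and 833.3 (log2 ratio 0.11), and Rara passed the floor in wild type only (368.2 against 28.3), at least 1.37-fold higher. Vdr, which in liver is expressed mainly outside hepatocytes, read 539.4 and 68.1, at least 2-fold higher and just past that line. Its other probe set was under both floors (128.0 against 28.7). With the floor at the brightest Bacillus control its log2 bound was 0.35, and Rara then had no fold. Markers that likewise passed in wild type alone were endothelial Pecam1 (636.9 against 228.0), stellate Pdgfrb (349.8 against 184.6), macrophage Cd68 (373.5 against 204.3) and cholangiocyte Sox9 (434.4 against 168.2). Pecam1 was at least 2.36-fold higher and the other 3 were under 2-fold. Most markers on both arrays were lower in wild type, as given above. That held for 6 of 8 endothelial, 5 of 8 stellate and fibroblast and 7 of 8 Kupffer and macrophage markers. Cholangiocyte Epcam (107.5 against 551.7), Tspan8 (86.2 against 586.9) and Krt19 (224.8 against 340.3) passed in null alone. The part of cell makeup in the Vdr value was not tested.

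Rora encodes RORα, which competes with REV-ERB proteins at clock-controlled genes and supports lipid metabolism in liver. It had 9 probe sets, of which 7 passed both floors. The brightest read 3095 in wild type and 5335 in null, 1.72-fold lower. At the other 6 the log2 ratios were 0.26, -0.21, -0.16, -0.34, -0.30 and 0.43, so 5 of 7 were lower in wild type and the median was -0.21. The brightest probe set had the lowest ratio of the 7.

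**Figure D3:**
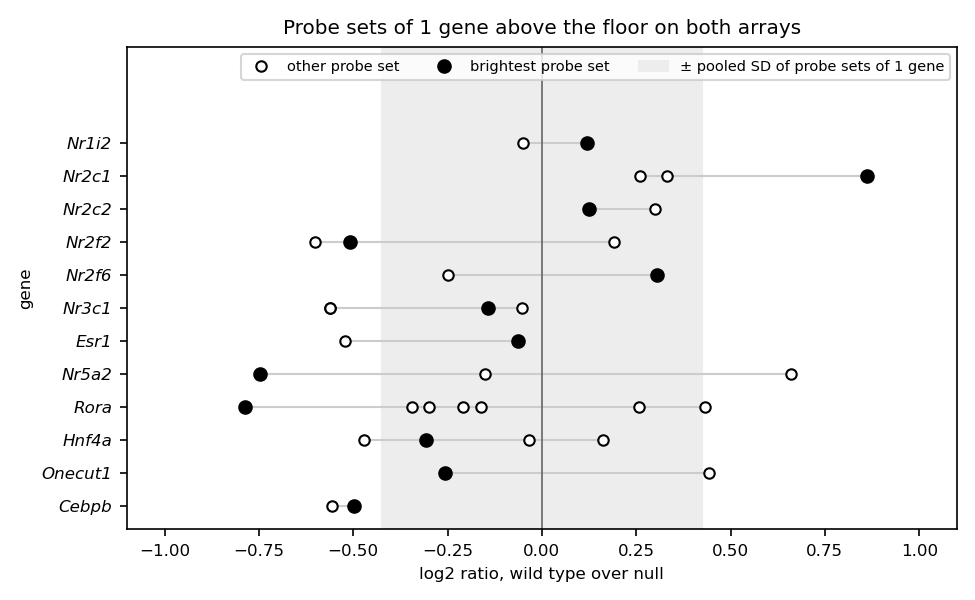
Log2 ratio (wild type over null) for every probe set that passed both floors, for the 12 genes with at least 2 of them; filled points mark the brightest probe set and the band the pooled SD of 0.42. Probe sets share a sign for Nr2c1, Nr2c2, Nr3c1, Esr1 and Cebpb and disagree for the other 7 genes, with the widest spans in Nr5a2 and Rora.

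The hepatocyte factors other than Prox1 were at most 1.24-fold apart at the brightest probe set. Hnf4a, the central activator of hepatocyte genes, read 28062 in wild type and 34696 in null, a log2 ratio of -0.31. Its other 3 probe sets gave 11255 against 10057, 7913 against 10963 and 3641 against 3730 (log2 ratios 0.16, -0.47 and -0.03). The pioneer factors of the FOXA family, which open liver enhancers, were near equal, with 2683 against 2810 for Foxa1, 2654 against 2189 for Foxa2 and 3110 against 3871 for Foxa3. Their log2 ratios were -0.07, 0.28 and -0.32. Onecut1, for HNF6, split over its 2 probe sets, 2160 against 2582 and 2419 against 1779. Of these 6 factors with Prox1, 5 had a negative ratio, but 1 after scaling to the hybridization controls.

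Prox1, a homeobox factor that sets hepatoblast and lymphatic fate and represses Cyp7a1, was lower in wild type at all 3 of its probe sets. The brightest read 529.4 in wild type and 811.0 in null, 1.53-fold lower. The others were under the wild-type floor, with 196.5 against 929.9 (at least 3.23-fold lower) and 143.6 against 421.1 (at least 1.46-fold lower). Since they passed in null alone, the floor fixes their direction. The first of these is the largest difference with the floor applied among the 66 measured probe sets of listed genes, of which 2 were at least 2-fold higher and 2 lower (all named probe sets had 4.65% and 3.15%).

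At the brightest probe set, the 3 C/EBP genes were lower in wild type and remained so in each of the 5 scalings. These leucine zipper factors drive metabolic (C/EBPα) and acute phase (C/EBPβ and C/EBPδ) genes. Cebpa read 9739 in wild type and 13351 in null, 1.37-fold lower. Cebpb read 7573 and 10684, and 2089 against 3073 at its second probe set, 1.41-fold and 1.47-fold lower. Cebpd read 1014 and 1676 at the brightest of 2 probe sets, 1.65-fold lower. Its other probe set passed in null alone (220.2 against 273.6), with a log2 ratio of 0.07 once the floors were applied. With the median over probe sets the log2 ratio of Cebpd was -0.33. Log2 ratios after scaling to the hybridization controls were -0.08, -0.12 and -0.35, all inside the scatter of probe sets.

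Known target genes of these receptors, taken from lists written with earlier results of these data known, reached differences of up to 10.98-fold in single genes. Among 18 measured LXR targets, 3 were higher by 2-fold or more and 2 were lower, where 4.99% and 2.80% of all measured genes were. Under hybridization control scaling 6 were higher and 0 lower. Their median log2 ratio was 0.31, against 0.005 for all measured genes, but 0.09 with the Bacillus floor or with the median over probe sets, and 0.12 without _x_at and _s_at probe sets. The 3 were the phospholipid transfer protein gene Pltp (7.87-fold; 8660 against 1101), lipoprotein lipase Lpl (10.98-fold) and the desaturase Scd1 (3.04-fold), which are also known targets of PPARα. Of the 17 LXR targets on both arrays, 11 had positive log2 ratios and 6 negative. The sterol exporter genes Abcg5 and Abcg8 had log2 ratios of 0.72 and 0.51. Abca1, Srebf1, Mylip and Mlxipl had -0.09, 0.06, -0.13 and -0.27. All of these were picked after their values were seen. Cyp7a1 (2.41-fold; the rate-limiting enzyme of bile acid synthesis) and the macrophage gene Cd5l (2.12-fold), also on the Kupffer marker list above, were lower. Nr1h3 itself, as given above, had a log2 ratio of 0.12.

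Of 19 measured FXR targets, 3 were at least 2-fold higher and 1 was lower, beside 4.99% and 2.80% of all measured genes. The higher genes were Abcb4 (2.25-fold), Pltp and the bile acid exporter subunit Slc51a (at least 2.10-fold), and the lower one was Cyp7a1. Slc51a passed in wild type alone (564.8 against 51.9), which fixes its direction, and 18.2% of all such genes reached 2-fold. The median log2 ratio of the list was -0.18. Under hybridization control scaling 4 were higher and 0 lower, and 2 were higher after quantile normalization, loess, with the 75th percentile or Bacillus floor, or without _x_at and _s_at probe sets. Nr0b2, which encodes the FXR-induced repressor SHP, had a log2 ratio of -0.58, also picked after its value was seen. Of 21 measured CAR and PXR targets, 1 was at least 2-fold higher and 1 was lower, beside the same shares of all measured genes. Abcc4 was at least 3.84-fold higher and also passed in wild type alone (1033.5 against 222.1), while Slco1a4 was 4.12-fold lower. The median log2 ratio of this list was -0.09. The higher count was 0 at the 75th percentile floor and 2 with the median over probe sets or without _x_at and _s_at probe sets, and the lower count was 2 after quantile normalization and 3 with the 25th percentile floor or no floor. The classical CAR target Cyp2b10 had a log2 ratio of -0.68 and the PXR target Cyp3a11 -0.09.

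Of 23 measured HNF4A targets, 20 had negative log2 ratios (87.0%, against 52.2% of all genes on both arrays), with a median of -0.42. Apoa1, Apob, Ttr, Tat and Cps1 are also on the hepatocyte marker list, where 9 of 9 were negative (median -0.30). At 2-fold, 1 HNF4A target was higher and 2 were lower, beside 4.99% and 2.80% of all measured genes. The higher one was Ppara (2.33-fold), the gene disrupted in the null mice. Cyp7a1 and the pyruvate kinase gene Pklr (4.04-fold) were lower. After scaling to the hybridization controls the median was -0.04, with 2 genes at least 2-fold higher and 1 lower.

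Among 21 measured glucocorticoid receptor targets, 5 were lower by 2-fold or more and 1 was higher, beside 2.80% and 4.99% of all measured genes. The lower genes were the metallothioneins Mt2 (4.84-fold; 5906 against 28597) and Mt1 (2.28-fold), the aminotransferase Got1 (2.51-fold), the growth factor binding protein Igfbp1 (2.44-fold) and the stress gene Gadd45g (2.24-fold). Angptl4, a lipase inhibitor and also a PPARα target, was higher, just past the 2-fold line, and the count of higher genes was 0 after quantile normalization or without _x_at and _s_at probe sets. The classical targets Tat, Pck1, Fkbp5 and Per1 stayed under 2-fold. Their log2 ratios were -0.45 for Tat, -0.66 for Pck1, -0.02 for Fkbp5 and 0.06 for Per1. Dusp1, G6pc and Tsc22d3 also stayed under 2-fold, with -0.75, -0.68 and -0.63. All of these were picked after their values were seen. Of the 21 measured targets, 16 had a negative log2 ratio and 5 a positive one. The median log2 ratio of the list was -0.36, or 0.02 when scaled to the hybridization controls. Of the 5 lower genes, Mt2 alone stayed past 2-fold under that scaling (log2 ratio -1.90).

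Targets of the retinoic acid, vitamin D, ROR and estrogen receptors included 0 of 19 measured genes that were 2-fold higher and 2 that were lower, beside 4.99% and 2.80% of all measured genes. The 2 were Cyp7b1 (2.03-fold), the oxysterol hydroxylase that RORα is known to activate, and Hsd3b5 (2.04-fold), a male-biased steroid dehydrogenase. Both were under 2-fold after scaling to the hybridization controls (log2 ratios -0.64 and -0.65). The count of lower genes was 1 after median centring, 3 after quantile normalization, 0 after loess, 5 with the floor at the 25th percentile and 7 with no floor. The count of higher genes was 1 after loess, 2 with either of these floors and 3 when scaled to the hybridization controls. The median log2 ratio was -0.18, or -0.76 with no floor and -0.47 with the Bacillus floor. Of the retinoic acid targets, Cyp26b1 (431.0 against 783.2) and Rarb had log2 ratios of -0.86 and -0.83, Cyp26a1 and Dhrs3 -0.18 and -0.13, and Tgm2 0.04. Of the other ROR targets, Arntl, Elovl3 and Cyp8b1 had log2 ratios of 0.97, 0.89 and 0.83, and G6pc -0.68. Cyp24a1, the classical target of the vitamin D receptor, passed the floor in wild type only with a bound of 0.20. Passing in wild type alone fixes its direction. Its wild-type signal (309.7 against 25.3 in null) was under the brightest Bacillus control of that array (316.5). Among the remaining measured genes of the list, log2 ratios were -0.99 for Lifr, -0.89 for Pgr, -0.10 for Avpr1a and 0.29 for Tff1. Greb1, Sult1e1 and Nr1d1 passed in null alone, with bounds of -0.70, -0.60 and -0.12.

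**Figure D4:**
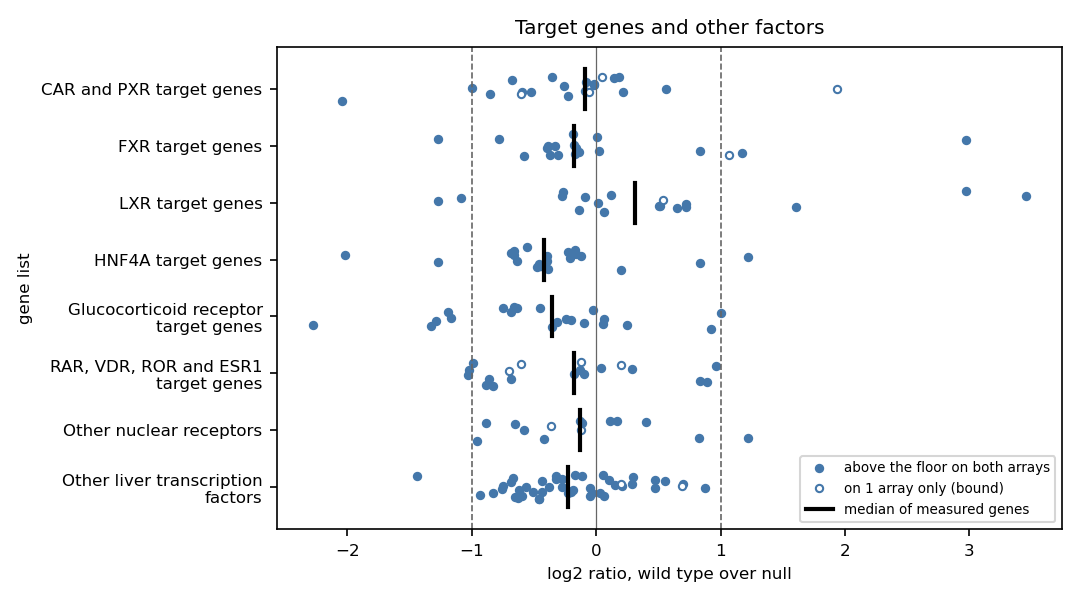
Log2 ratio (wild type over null) for the measured genes of each target list and of the lists of other nuclear receptors and other liver transcription factors, with the median of each as a bar, open points for bounds and dashed lines at 2-fold. The LXR list has the highest median (0.31) and the HNF4A list the lowest (-0.42).

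Of 21 other nuclear receptors found, 14 were measured and 7 were under both floors (Esr2, Hnf4g, Nr0b1, Nr2e1, Nr4a3, Nr5a1 and Ppard). Ppara, the gene disrupted in the null mice, alone reached 2-fold higher and 0 reached 2-fold lower, beside 4.99% and 2.80% of all measured genes. The median log2 ratio was -0.13. Rxra, the common dimer partner, had a log2 ratio of -0.13.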

How the data were processed

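Total liver RNA was measured on 2 arrays of 45101 probe sets, 1 per genotype. Per the labels, the authors made 1 linear signal intensity per probe set with the Affymetrix statistical algorithm and scaled each array over all probe sets to a target of 1000. Trimmed by 2% at either end, the signals averaged 1000.01 on each array. No software version or detection call is given in the sources used here, and the floor stands in for the calls. The number of arrays limits the precision.

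Gene symbols came from the platform annotation of 2016: 34945 of 45037 probe sets that are not controls had 1 symbol, 932 several and 9160 none, and only the first were used. All 31 genes found had identifiers in the RefSeq table of GRCm38.p6, with 0 symbols changed.

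Signals were used as deposited, with the floor at the 50th percentile of each array and a call at 2-fold. Where 1 array was under the floor, the fold is a lower bound (at least N-fold). The brightest probe set, by mean log2 signal over both arrays, represented a gene. All listed genes are named, and genes of the other lists where at least 2-fold apart; others named were picked after their values were seen. Members and lists were chosen with earlier results of these data known. Python 3.11.15, pandas 2.3.3, scipy 1.17.1 and statsmodels 0.14.6 were used, and the procedure was tested on simulated data. Alternatives were 4 scalings (median centring, quantile, loess, hybridization controls), 4 floors, the median over probe sets, leaving out cross-hybridizing probe sets (names with _x_at or _s_at), and 1.5-fold and 3-fold as the line for a call.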

Additional observations from a re-analysis of the deposited data

How the results depend on the processing

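The count of listed genes at least 2-fold higher in wild type, 2 as deposited, was 1 after quantile normalization and 1 after loess (Esrrg), 4 after scaling to the hybridization controls (with Nr2c1 and Nr4a1), 5 with the floor at the 25th percentile and 5 with no floor (with Nr2f1, Nr4a1 and Rara), 0 with the floor at the 75th percentile and 0 with the floor at the brightest Bacillus control. It was 4 at a threshold of 1.5-fold and 0 at 3-fold. The count at least 2-fold lower, 1 as deposited, was 0 after median centring, after hybridization control scaling and at the 75th percentile floor, 6 at 1.5-fold and 0 at 3-fold. The median log2 ratio of the 30 measured genes, -0.20 as deposited, became 0.18 under hybridization control scaling, where the median of all measured genes moved from 0.005 to 0.38. The medians of 6 other lists reversed there too: 0.29 for CAR and PXR targets, 0.20 for FXR targets, 0.022 for glucocorticoid receptor targets, 0.20 for retinoic acid, vitamin D, ROR and estrogen receptor targets, 0.25 for other nuclear receptors and 0.15 for other liver transcription factors. These follow from adding 0.38 to every ratio. With the median over probe sets, the ratios of Rora (-0.18), Nr5a2 (-0.15) and Nr6a1 (0.32) moved by more than the scatter of probe sets. The count of all genes at least 2-fold higher and lower, 651 and 365, became 1759 and 109 after scaling to the hybridization controls (94.2% higher, against 64.1%) and 297 and 303 with the Bacillus floor (49.5% higher), a floor that is higher on the null array (422.4) than on the wild-type array (316.5). They were 2336 and 1650 with the floor at the 25th percentile, 157 and 98 at the 75th and 3096 and 2177 with no floor. No paired analysis was possible because each group has 1 array.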

Other observations

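Liver transcription factors outside the listed genes had log2 ratios from -1.44 to 0.88 on both arrays. Of 45 measured, 0 reached 2-fold higher and 1 reached 2-fold lower in wild type, beside 4.99% and 2.80% of all measured genes. That gene was Dbp, a clock-controlled activator (2.71-fold; 2442 against 6605). The call was lost without _x_at and _s_at probe sets (0 lower), and 3 genes were at least 2-fold higher under hybridization control scaling. The median log2 ratio was -0.23, and of the 43 on both arrays 30 were negative, or 17 after scaling to the hybridization controls. Genes named here after their values were seen include the unfolded protein response factor Xbp1 (-0.83), Nfix (-0.93) and Tef (-0.76), a relative of Dbp, on the lower side. On the higher side stood the inhibitors of helix-loop-helix factors Id1 (0.88) and Id3 (0.70), while Id2 had a log2 ratio of -0.62. No replicate stands behind these values.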
